A study of Mus musculus with 24 samples.

Results

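The mitochondrial ribosomal protein genes were taken as the protein-coding genes whose symbols begin with Mrpl or Mrps followed by a number and which held at least 240 counts summed over the 24 libraries. All 78 such genes reached that minimum, out of 56884 genes in the count table, and their totals ran from 1431 counts for *Mrpl23* to 37162 for *Mrpl24*. All 78 also passed the filter on low counts and were among the 13679 genes tested. Of the 78, 51 encode proteins of the large subunit and 26 proteins of the small subunit. *Mrps36* was placed in neither, because its product is now described as a subunit of the oxoglutarate dehydrogenase complex, and it is kept here because the rule goes by symbol.

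Mitochondria translate the few messenger RNAs encoded by mitochondrial DNA on ribosomes of their own, called mitoribosomes. The ribosomal RNAs of these particles come from mitochondrial DNA, whereas their proteins are encoded in the nucleus, translated in the cytosol and imported. Mitoribosomes make core subunits of the respiratory chain and of ATP synthase, so their assembly has to be matched to that of the nuclear-encoded subunits of the same complexes. Some mitoribosomal proteins descend from bacterial ribosomal proteins, and others are found only in mitochondria.

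The libraries were made from poly(A) RNA of bone marrow-derived macrophages (BMDM), which were grown with macrophage colony-stimulating factor from wild-type C57BL/6J mice. The 4 donors, numbered 1, 2, 4 and 5, were 9-week-old females, and each gave 1 library to each of 6 groups. M0 cells were left unstimulated (naive) for 24 hours, and M2 cells received IL-4 and IL-13 at 20 ng/ml each for 24 hours. The other groups were treated for 1 hour with an inhibitor and then for 24 hours with IL-4/IL-13 and the inhibitor together. Tunica cells received tunicamycin at 5 μg/ml, which blocks N-linked glycosylation in the endoplasmic reticulum. Sal003 cells received Sal003 at 10 μM, which inhibits dephosphorylation of the translation factor eIF2α. Oligo and Oli_ISR cells received oligomycin at 1 μM, an inhibitor of ATP synthase, and 1 of these groups also received ISRIB at 1 μM, which opposes the effect of eIF2α phosphorylation. The records disagreed on which: the library names and replicate labels give ISRIB to Oli_ISR, whereas the titles and treatment labels give it to Oligo. The groups are therefore called by their library names, the expression data were not used to settle the matter, and which of them holds ISRIB cannot be told apart from the records alone.

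Libraries held between 16238727 and 26725278 counts assigned to genes. The lowest count of any member in any library was 30. The IL-4/IL-13 response gene *Retnla* averaged 0.113 CPM (counts scaled to a common library size) in M0 and 7754 CPM in M2. The summed level of 8 macrophage markers was 31093 to 36950 CPM in M0, 11426 to 13836 CPM in M2, 16442 to 18063 CPM in Tunica, 13831 to 15562 CPM in Sal003, 8782 to 9611 CPM in Oligo and 13445 to 15349 CPM in Oli_ISR. By edgeR's quasi-likelihood test 7 of the 8 were lower in M2 than in M0, and 6 were lower and 1 higher in Oligo than in Oli_ISR. Of 8 lymphocyte markers, only *Cd4* passed the filter on low counts. Of 8 neutrophil markers, 6 passed, and their summed level was 40.2 to 76.2 CPM in M0, 23.7 to 43.6 CPM in M2, 0.103 to 0.286 CPM in Tunica, 5.09 to 8.34 CPM in Sal003, 2.73 to 4.71 CPM in Oligo and 18.7 to 24.7 CPM in Oli_ISR. Of 9 markers of dendritic, mast and stromal cells, 7 passed, and their summed level was 36.7 to 144 CPM in M0, 55.7 to 117 CPM in M2, 8.56 to 26.5 CPM in Tunica, 17.4 to 54.6 CPM in Sal003, 13.5 to 57.0 CPM in Oligo and 18.9 to 58.4 CPM in Oli_ISR. Of these 7, 2 were higher and 2 lower in M2 against M0, 5 were lower than M2 in Tunica, and 4 were lower than M2 in each of the other inhibitor groups, with 1 higher in Oligo. All 3 marker lists thus moved with the comparisons, the neutrophil and dendritic, mast and stromal markers from levels far below those of the macrophage markers, and their part in the results was not tested. In bulk RNA, fewer cells of a type and less RNA per cell cannot be told apart.

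Averaged over the 24 libraries, members ranged from 3.06 CPM for *Mrpl23* to 79.9 CPM for *Mrpl24*, with a median of 24.3 CPM. Per kilobase of the main transcript, *Mrpl42*, a mitochondria-specific protein of the large subunit, was highest at 45.1 CPM per kilobase. *Mrps18c*, one of the S18 proteins, was lowest at 2.79 CPM per kilobase. Of its transcript, 77.7% is overlapped by exons of other genes on the opposite strand. For *Mrpl23* 78% and for *Mrpl42* 55.4% of the transcript is near-identical to another gene. Reads of these 3 members may not be separable from those of other genes, so their ranks are uncertain. The median coefficient of variation between mice was 13.7% in M0 and between 4.82% and 5.11% in the other groups. The wide spread in M0 came with 1 library, the naive library of mouse 2, which was the highest of the 4 naive libraries for 73 of 78 members, whereas 36.4% of all genes tested were highest there. The main counts and medians of M2 against M0, and the fold changes printed for single members there, are therefore given with and without it. Leaving it out was an alternative added after seeing the data.

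As a group the members were lowest in naive cells and highest in Tunica. The mean log2 CPM over the 78 genes was 4.27 ± 0.18 in M0, 4.52 ± 0.03 in M2, 4.67 ± 0.01 in Tunica, 4.58 ± 0.03 in Sal003, 4.603 ± 0.03 in Oligo and 4.53 ± 0.02 in Oli_ISR (mean ± SD, n = 4 mice each). The naive value was 4.54 in mouse 2 and between 4.13 and 4.21 in the others, so only that naive library overlapped the M2 group. By group mean, 52 of 78 members were lowest in M0 and 33 were highest in Tunica, while Oli_ISR was the highest group for 2 members and M0 for another 2. These counts were not made for all genes tested, so they are not shown to be particular to the members.

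**Figure D1:**
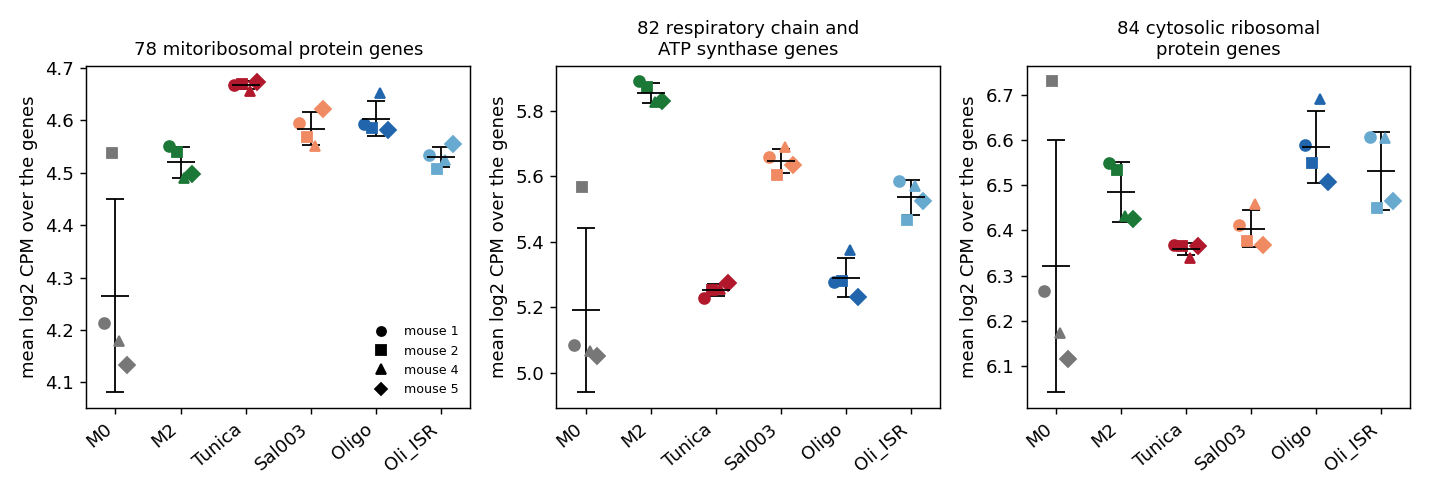
Mean log2 CPM of the mitoribosomal protein genes (left), the nuclear genes of the respiratory chain and ATP synthase (middle) and the cytosolic ribosomal protein genes (right) in each of 24 libraries. Symbols mark the mouse, bars show mean ± SD of 4 libraries, and each panel has its own y axis that does not start at 0. The mitoribosomal genes averaged 4.67 in Tunica and 4.52 in M2, whereas the respiratory chain genes averaged 5.25 in Tunica and 5.85 in M2, and the naive library of mouse 2 lies above the other naive libraries in all panels.

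To determine whether IL-4/IL-13 changed mitoribosomal gene expression, M2 was compared with M0. Stimulated cells had more mitoribosomal protein mRNA, by a modest amount per gene: 46 of 78 members (59.0%) were higher and 5 (6.41%) were lower by edgeR's quasi-likelihood test at a Benjamini-Hochberg adjusted *P* under 0.05, where 30.1% of all genes tested were higher and 30.4% were lower. The median log2 fold change was 0.20 for the members and −0.02 for all genes. Only 10 members rose by at least 1.5-fold, a threshold that 13.4% of all genes passed, and 0 fell by that much, as 15.6% of all genes did. The medians over members by mouse were 0.30 in mouse 1, −0.02 in mouse 2, 0.29 in mouse 4 and 0.35 in mouse 5. Without the naive library of mouse 2, 63 members were higher and 4 were lower, where 33% and 30.6% of all genes were, the median log2 fold change was 0.35, and 14 members rose by at least 1.5-fold.

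Both subunits took part. In the small subunit 17 of 26 members (65.4%) were higher and 0 were lower. In the large subunit 28 of 51 (54.9%) were higher and 5 (9.8%) were lower, where 30.1% and 30.4% of all genes were. Members of bacterial descent counted 18 of 29 higher and 3 lower in the large subunit, and 9 of 17 higher and 0 lower in the small one. Those found only in mitochondria counted 10 of 21 higher and 2 lower in the large subunit, with a median log2 fold change of 0.16, and 8 of 9 higher and 0 lower in the small one, with a median of 0.47. With the naive library of mouse 2 left out, the small subunit had 22 higher and 0 lower and the large subunit 40 higher and 4 lower. The members found only in mitochondria then had 16 of 21 and 8 of 9 higher. Those of bacterial descent had 24 of 29 higher and 2 lower in the large subunit and 14 of 17 higher and 0 lower in the small one. The 10 members that rose by at least 1.5-fold were *Mrps36*, *Mrpl42*, *Mrps28*, *Mrps25*, *Mrpl12*, *Mrpl47*, *Mrps35*, *Mrps22*, *Mrpl18* and *Mrps27*.

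*Mrps28*, which encodes the mitochondrial bS1 protein of the small subunit, had 5.56, 7.62, 5.52 and 5.02 CPM in the naive cells of mice 1, 2, 4 and 5 and 11.8, 11.8, 11.4 and 11.6 CPM in M2. Every M2 library was above every naive library, and the log2 fold change was 0.98 ± 0.09 (SE, edgeR adjusted *P* = 6.74e-10). *Mrpl42* had 23.6, 28.5, 21.1 and 22.2 CPM in M0 and 49.5, 50.8, 45.4 and 50.2 CPM in M2, again without overlap, with a log2 fold change of 1.04 ± 0.06 (edgeR adjusted *P* = 3.03e-13). *Mrpl42* shares 55.4% of its main transcript with the near-identical *Gm6419*, so the split of reads between them is uncertain. *Mrps36* averaged 4.72 ± 0.64 CPM in M0 and 10.2 ± 1.31 CPM in M2, with a log2 fold change of 1.12 ± 0.12 (edgeR adjusted *P* = 6.64e-09). The rise of the member named *Mrps36* is thus not that of a ribosomal protein. Of the *Mrps36* transcript, 27.6% is near-identical to other genes. Without the naive library of mouse 2, the log2 fold changes of *Mrps28*, *Mrpl42* and *Mrps36* were 1.13, 1.15 and 1.18, all past the test.

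Of the stalk proteins, which recruit translation factors to the large subunit, *Mrpl12* rose from 27.4, 42.2, 26.8 and 26.3 CPM in M0 to 55.7, 52.9, 56.5 and 56.4 CPM in M2 (log2 fold change 0.86 ± 0.10, edgeR adjusted *P* = 2.67e-08). *Mrpl10*, which anchors *Mrpl12*, rose by 0.19 ± 0.05 on the log2 scale (edgeR adjusted *P* = 0.00286), and *Mrpl11* did not pass the test with a log2 fold change of 0.18 ± 0.11 (edgeR adjusted *P* = 0.159). Without the naive library of mouse 2, *Mrpl12* and *Mrpl10* had log2 fold changes of 1.06 and 0.27, both past the test, and *Mrpl11* passed with a log2 fold change of 0.41 (edgeR adjusted *P* = 4.01e-06). The difference between the stalk genes was not tested.

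The 3 members with the largest falls were *Mrpl52*, *Mrpl33* and *Mrpl24*, all of the large subunit. *Mrpl24* went from 86.5, 89.1, 72.1 and 69.8 CPM to 64.3, 60.9, 57.5 and 61.2 CPM, with every M2 library below every naive library (log2 fold change −0.38 ± 0.07, edgeR adjusted *P* = 1.72e-05). Of its transcript, 70.5% is overlapped on the opposite strand by *Mettl25b*, which did not pass the test here (−0.18 ± 0.12, edgeR adjusted *P* = 0.208). For *Mrpl33*, 24.2% of the transcript is overlapped on the same strand by *Gm43809*. *Mrpl33* fell by 0.40 ± 0.09 (edgeR adjusted *P* = 0.000297) and *Mrpl52* fell by 0.44 ± 0.11 on the log2 scale (edgeR adjusted *P* = 0.0016). For *Mrpl52* the groups overlapped, with 15.1 to 25.9 CPM in M0 and 12.2 to 16.6 CPM in M2. Without the naive library of mouse 2, *Mrpl24*, *Mrpl33* and *Mrpl52* had log2 fold changes of −0.31, −0.32 and −0.26, all still past the test.

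Among the nuclear genes for subunits of the respiratory chain and ATP synthase, 72 of 82 were higher and 0 were lower, with a median log2 fold change of 0.68. Cytosolic ribosomal protein genes, counted in the same way, had 24 of 84 higher and 2 lower and a median of 0.14. Without the naive library of mouse 2, respiratory chain genes had 80 of 82 higher and a median of 0.85, and cytosolic ribosomal protein genes 64 of 84 higher, 1 lower and a median of 0.29. The count of higher cytosolic ribosomal protein genes thus depended on that library. In the same comparison 15 of 15 proliferation genes were higher, and their summed level went from 296 to 343 CPM in M0 to 847 to 987 CPM in M2. The part of proliferation in the mitoribosomal values was not tested.

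Tunicamycin moved members in both directions, but over a narrower range than genes at large. The SD of the log2 fold changes was 0.56 over the members and 1.67 over all genes tested. The median absolute log2 fold change was 0.37 over the members and 0.58 over all genes. The narrower range was not particular to tunicamycin. In the other comparisons the SD was 0.21 to 0.41 over the members and 0.53 to 1.09 over all genes. The genes at large were not matched to the members for count level. Against M2, 40 of 78 (51.3%) were higher and 19 (24.4%) were lower by edgeR's quasi-likelihood test, where 38.7% of all genes were higher and 37.6% were lower. The median log2 fold change was 0.14 for the members and 0.01 for all genes, and it lay between 0.11 and 0.25 in all 4 mice. At least 1.5-fold changes were found for 14 members upward and 9 downward, where 22.2% and 25.1% of all genes passed that threshold. *Mrps18b* and *Mrps28*, both of the small subunit, rose by more than 2.5-fold, as 8.56% of all genes did, and 0 members fell by that much, as 14% of all genes did.

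*Mrps18b* had the largest change of any member in any comparison. It lies on the minus strand of chromosome 17 (chr17:36221266-36227606, GRCm39) and encodes one of 3 mitochondrial homologues of bacterial S18. Its level was 14.0, 16.2, 13.1 and 14.1 CPM in M2 and 55.7, 57.6, 54.3 and 53.8 CPM in Tunica. All Tunica libraries thus exceeded all others of the study, and the log2 fold change was 1.94 ± 0.07, or 3.84-fold (edgeR adjusted *P* = 3.25e-18). Of its main transcript, 67.5% overlaps exons of genes on the opposite strand, *Ppp1r10* and *Gm16279*, and 32.4% is near-identical to *Gm13552*. The strand setting of the counting was not stated, so reads of *Mrps18b* and *Ppp1r10* may not be separable. *Ppp1r10* itself fell by 0.29 ± 0.05 on the log2 scale in the same comparison (edgeR adjusted *P* = 2.41e-06).

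*Mrps28* went from between 11.4 and 11.8 CPM in M2 to 31.3, 31.3, 29.7 and 28.8 CPM in Tunica, a log2 fold change of 1.38 ± 0.08 (edgeR adjusted *P* = 1.96e-14). Unlike *Mrps18b* it has no overlap with another gene and near-identical stretches over 3.9% of its transcript. *Mrpl57*, a small protein of the large subunit found only in mitochondria, went from 16.7, 15.2, 15.6 and 15.1 CPM to 39.7, 40.7, 35.7 and 39.6 CPM, a log2 fold change of 1.32 ± 0.08 (edgeR adjusted *P* = 8.18e-14). Its opposite-strand neighbour *Ska3*, which overlaps 4.3% of it, moved the other way and averaged 6.30 CPM in M2 and 0.891 CPM in Tunica. The next largest rises, named here after their values were seen, were those of *Mrpl45* (1.28), *Mrpl24* (1.01) and *Mrps10* (0.87) on the log2 scale. *Mrpl45* helps to tether the mitoribosome to the inner membrane, and its level averaged 30.6 ± 0.70 CPM in M2 and 74.3 ± 2.37 CPM in Tunica.

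Among the falls, *Mrpl34*, a large-subunit protein of bacterial descent, had 27.3, 26.8, 27.7 and 27.2 CPM in M2 and 12.1, 13.3, 12.1 and 11.3 CPM in Tunica. The groups were far apart relative to their spread, with a log2 fold change of −1.16 ± 0.12 (edgeR adjusted *P* = 1.81e-09). *Mrpl34* has no overlap and no near-identical copy. *Mrps21*, the homologue of bacterial S21, fell by 0.96 ± 0.10 on the log2 scale (edgeR adjusted *P* = 5.92e-09), from 25.2 ± 1.03 to 12.9 ± 0.39 CPM. *Mrps36* fell by 0.97 ± 0.11 (edgeR adjusted *P* = 3.31e-08), from 10.2 to 5.23 CPM, a level close to the naive mean of 4.72 CPM. *Mrpl42* averaged 23.9 CPM in M0, 49.0 CPM in M2 and 27.9 CPM in Tunica (log2 fold change −0.81 ± 0.06, edgeR adjusted *P* = 1.06e-11).

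**Figure D2:**
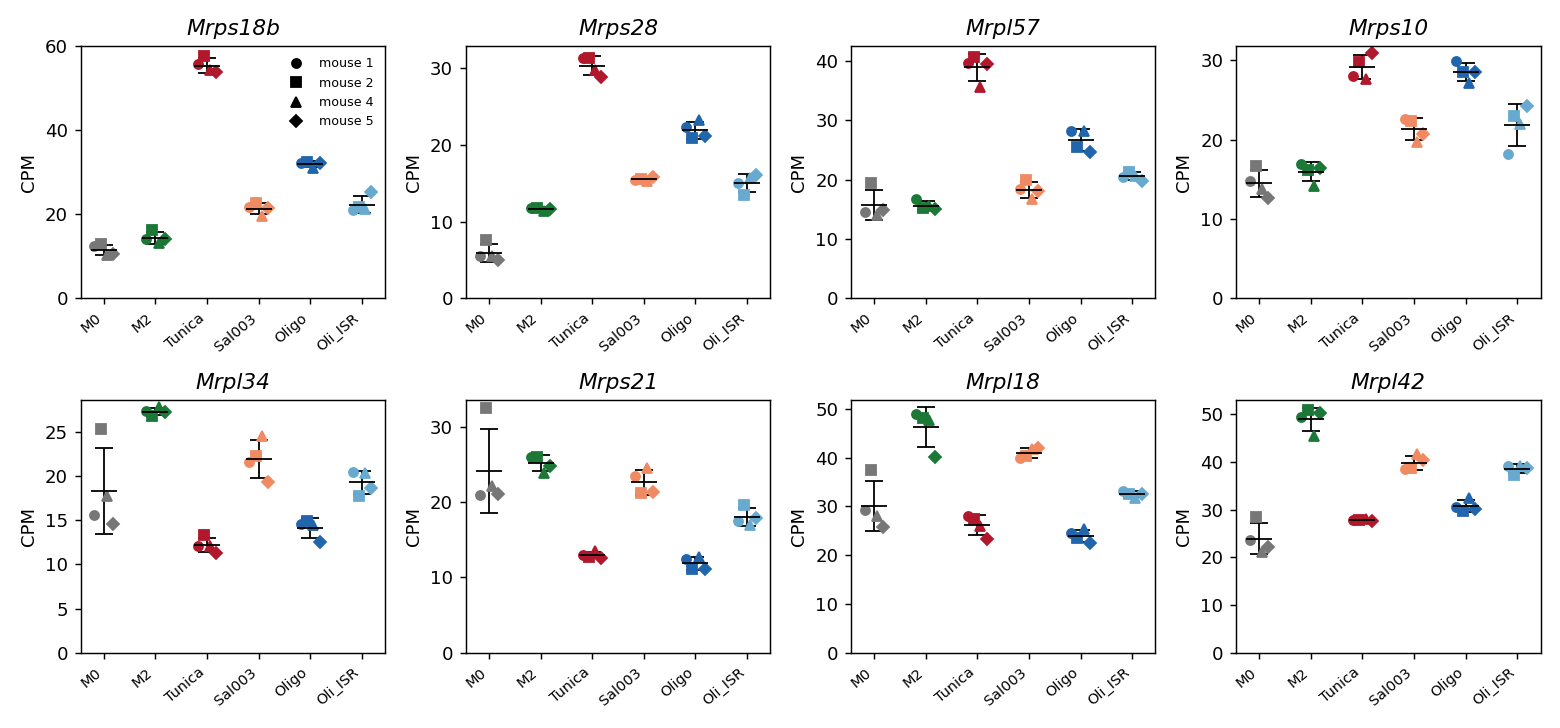
CPM of 8 members in each of 24 libraries, by group, with symbols for the mouse and bars for mean ± SD of 4 libraries; each y axis starts at 0 and has its own range. *Mrps18b*, *Mrps28*, *Mrpl57* and *Mrps10* lie above M2 in all Tunica and Oligo libraries, and *Mrpl34*, *Mrps21*, *Mrpl18* and *Mrpl42* lie below M2 in all of them.

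Both subunits held members that moved in each direction. In Tunica 27 of 51 large-subunit members (52.9%) were higher and 9 (17.6%) lower. In the small subunit 13 of 26 (50%) were higher and 9 (34.6%) lower, where 38.7% and 37.6% of all genes were. The share of lower small-subunit members was thus close to that of all genes. Mitoribosome assembly factors counted 15 (62.5%) higher and 4 (16.7%) lower of 24. The largest rise among them was that of *Tfb1m*, which methylates the small ribosomal RNA (log2 fold change 1.39 ± 0.09, edgeR adjusted *P* = 8.47e-13). The largest fall was that of *Trmt2b*, a mitochondrial RNA methyltransferase (−0.996 ± 0.06, edgeR adjusted *P* = 1.83e-13). Mitochondrial translation factors counted 7 (41.2%) higher and 5 (29.4%) lower of 17, a share of higher genes close to that of all genes. Of these factors, *Mrrf*, the ribosome recycling factor, was at 0.92 ± 0.08 (edgeR adjusted *P* = 4.75e-11).

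The respiratory chain genes mostly fell. Of 82, 4 were higher and 67 were lower in Tunica, with a median log2 fold change of −0.64. Cytosolic ribosomal protein genes counted 9 higher and 30 lower of 84, with a median of −0.12. Proliferation genes counted 1 higher and 14 lower of 15, with a summed level of 191 to 200.4 CPM in Tunica. The part of proliferation in the mitoribosomal values was not tested.

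**Figure D3:**
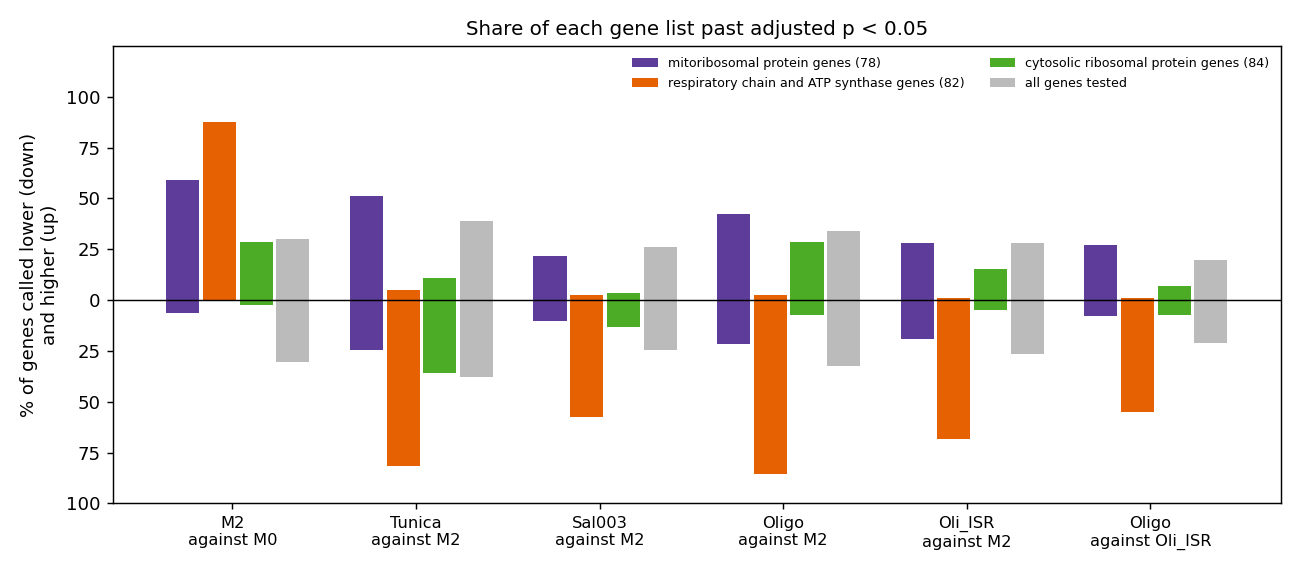
Percentage of genes called higher (up) and lower (down) at an edgeR adjusted *P* under 0.05 in each comparison, for the mitoribosomal protein genes, the respiratory chain and ATP synthase genes, the cytosolic ribosomal protein genes and all 13679 genes tested. In Tunica against M2, 51.3% of the mitoribosomal genes were higher and 24.4% lower, while 4 of 82 respiratory chain genes were higher and 67 lower. The 4 comparisons with M2 share its libraries.

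Sal003 left most members short of the test. Against M2, 17 of 78 (21.8%) were higher and 8 (10.3%) were lower by edgeR's quasi-likelihood test, where 25.9% of all genes were higher and 24.6% were lower. The share of higher members was thus no greater than that of all genes. The median log2 fold change was 0.09, between 0.05 and 0.10 by mouse, against 0.00 for all genes, and no member changed by 1.5-fold, where 7.95% of all genes rose and 12% fell by that much. The counts depended on the scaling: with library size alone 11 members were higher and 19 lower, and the median was −0.01. That scaling moved all genes by a median of −0.0957, and the shares of all genes called under it are not given here.

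Here too the largest rise was that of *Mrps18b*, from the M2 levels given above to 21.6, 22.6, 19.6 and 21.5 CPM (log2 fold change 0.57 ± 0.07, edgeR adjusted *P* = 5.9e-07). The Sal003 libraries lay between those of M2 and Tunica. *Mrpl1*, which belongs to the stalk that releases spent transfer RNA, had 17.7, 16.7, 17.8 and 16.9 CPM in M2 and 23.3, 23.0, 21.6 and 27.7 CPM in Sal003 (log2 fold change 0.47 ± 0.08, edgeR adjusted *P* = 1.62e-05). *Mrpl30* rose by 0.43 ± 0.07 (edgeR adjusted *P* = 8.68e-06). The largest falls were those of *Mrps6* at −0.49 ± 0.14 (edgeR adjusted *P* = 0.0044), *Mrpl12* at −0.41 ± 0.09 (edgeR adjusted *P* = 0.000727) and *Mrps36* at −0.37 ± 0.11 (edgeR adjusted *P* = 0.00639). *Mrps36* no longer passed without mouse 1 (edgeR adjusted *P* = 0.0802). *Mrps6* shares 52.4% of its transcript with genes on the same strand, among them *Slc5a3*, which fell by 0.49 ± 0.12 in the same comparison (edgeR adjusted *P* = 0.0017), and the split of reads between them is uncertain. Respiratory chain genes counted 2 higher and 47 lower of 82, cytosolic ribosomal protein genes 3 higher and 11 lower of 84, and proliferation genes 0 higher and 15 lower of 15.

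The Oligo group also held members that moved in each direction. Against M2, 33 of 78 (42.3%) were higher and 17 (21.8%) were lower by edgeR's quasi-likelihood test, where 34% of all genes were higher and 32.2% were lower. The median log2 fold change was 0.10 for the members, between 0.05 and 0.17 by mouse, and 0.01 for all genes. At least 1.5-fold changes were found for 6 members upward and 5 downward, against 15.4% and 18.2% of all genes.

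*Mrps18b* reached 32.1, 32.5, 31.0 and 32.1 CPM in Oligo, above every M2 library (log2 fold change 1.15 ± 0.07, edgeR adjusted *P* = 4.94e-13). *Mrps28* reached 22.3, 20.9, 23.2 and 21.1 CPM (0.91 ± 0.08, edgeR adjusted *P* = 1.82e-10). *Mrps10*, a small-subunit protein of bacterial descent, went from 16.9, 16.1, 14.2 and 16.4 CPM in M2 to 29.8, 28.5, 27.1 and 28.5 CPM (0.84 ± 0.08, edgeR adjusted *P* = 2.06e-09). Of the *Mrps10* transcript, 38.2% is near-identical to *Gm18736*. These 3 members with the largest rises were all of the small subunit. By count, 24 of 51 large-subunit members (47.1%) and 9 of 26 small-subunit members (34.6%) were higher, where 34% of all genes were. *Mrpl38*, *Mrpl57* and *Mrpl32*, of the large subunit, were the other members that rose by at least 1.5-fold, with log2 fold changes of 0.82, 0.77 and 0.63.

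Downward, *Mrps21* had 26.01, 26.02, 23.9 and 24.8 CPM in M2 and 12.5, 11.1, 12.7 and 11.1 CPM in Oligo (log2 fold change −1.09 ± 0.10, edgeR adjusted *P* = 1.2e-09). *Mrpl34* had 14.5, 14.9, 14.5 and 12.5 CPM in Oligo (−0.95 ± 0.11, edgeR adjusted *P* = 6.49e-08). *Mrpl18*, a large-subunit protein of bacterial descent, went from 49.0, 48.2, 47.8 and 40.1 CPM to 24.6, 23.6, 25.3 and 22.5 CPM (−0.95 ± 0.08, edgeR adjusted *P* = 2.75e-10). In all 3 the groups were far from overlapping. For *Mrps21*, 47.7% of the transcript is near-identical to other genes, and for *Mrpl18* 29.4% is overlapped on the opposite strand by *Tcp1* and another gene. *Tcp1* differed from M2 by 0.08 ± 0.06 in this comparison (edgeR adjusted *P* = 0.221).

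The respiratory chain genes counted 2 higher and 70 lower of 82 in Oligo, with a median log2 fold change of −0.62. Cytosolic ribosomal protein genes counted 24 higher and 6 lower of 84. Assembly factors counted 18 higher and 4 lower of 24, with *Trmt2b* at −1.03 ± 0.06 and *Fastkd2*, an RNA-binding protein of mitoribosome assembly, at 0.83 ± 0.05 on the log2 scale. Translation factors counted 7 (41.2%) higher and 4 (23.5%) lower of 17, where 34% and 32.2% of all genes were. Of these factors, the release factor gene *Mtrf1* was at 1.04 ± 0.09. Proliferation genes counted 0 higher and 15 lower of 15, and their part in the mitoribosomal values was not tested.

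In the Oli_ISR group 22 of 78 members (28.2%) were higher and 15 (19.2%) were lower than in M2 by edgeR's quasi-likelihood test, where 27.9% of all genes were higher and 26.4% were lower. The share of higher members was close to that of all genes. The median log2 fold change was 0.02 and changed sign between mice, from −0.05 in mouse 2 to 0.04 in mouse 4. Only *Mrps18b* and *Mrps36* changed by at least 1.5-fold, where 9.55% of all genes rose and 12.3% fell by that much. *Mrps18b* had 21.0, 21.8, 21.3 and 25.2 CPM (log2 fold change 0.64 ± 0.07, edgeR adjusted *P* = 7.06e-08), and *Mrps36* averaged 6.66 ± 0.56 CPM (−0.61 ± 0.11, edgeR adjusted *P* = 4.64e-05).

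*Mrpl30* and *Mrpl1* followed with log2 fold changes of 0.49 ± 0.07 and 0.48 ± 0.08. The next falls were those of *Mrpl18* and *Mrpl34*, at −0.51 ± 0.08 and −0.50 ± 0.11. All 4 passed the test, with edgeR adjusted *P* values between 9.52e-07 and 0.000447. Without mouse 5, 14 members were higher and the median was −0.02. Respiratory chain genes counted 1 higher and 56 lower of 82.

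The groups given oligomycin were also compared with each other, libraries that M2 does not enter. In Oligo 21 of 78 members (26.9%) were higher and 6 (7.69%) lower than in Oli_ISR by edgeR's quasi-likelihood test, where 19.9% of all genes were higher and 21.3% were lower. The median log2 fold change was 0.07, between 0.03 and 0.13 by mouse, and 0.00 for all genes. *Mrps28* had 15.1, 13.4, 15.6 and 16.1 CPM in Oli_ISR, below all Oligo libraries (0.54 ± 0.08, edgeR adjusted *P* = 2.67e-06). *Mrps18b* was higher in Oligo by 0.51 ± 0.07 (edgeR adjusted *P* = 1.34e-06), also without overlap. *Mrps21* had 17.4, 19.7, 17.0 and 17.9 CPM in Oli_ISR, above all Oligo libraries (−0.60 ± 0.11, edgeR adjusted *P* = 4.83e-05), and was the only member past 1.5-fold, where 5.05% of all genes were higher and 7.12% lower by that much.

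*Mrpl34* and *Mrpl18* were likewise lower in Oligo, by −0.45 ± 0.12 (edgeR adjusted *P* = 0.00287) and −0.44 ± 0.08 (edgeR adjusted *P* = 0.000154). The largest nominal rise was that of *Mrpl23*, at 0.54 ± 0.18 (edgeR adjusted *P* = 0.0156). It rests on few reads, with 3.60, 3.20, 3.35 and 3.798 CPM in Oligo and 1.62, 2.53, 2.04 and 3.21 CPM in Oli_ISR. These ranges overlap, and the call was lost without mouse 1 (edgeR adjusted *P* = 0.126) or mouse 4 (edgeR adjusted *P* = 0.0718). Most of its transcript, 78%, is near-identical to another gene. Respiratory chain genes counted 1 higher and 45 lower of 82 in Oligo against Oli_ISR, with a median of −0.25, and assembly factors 16 higher and 3 lower of 24.

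**Figure D4:**
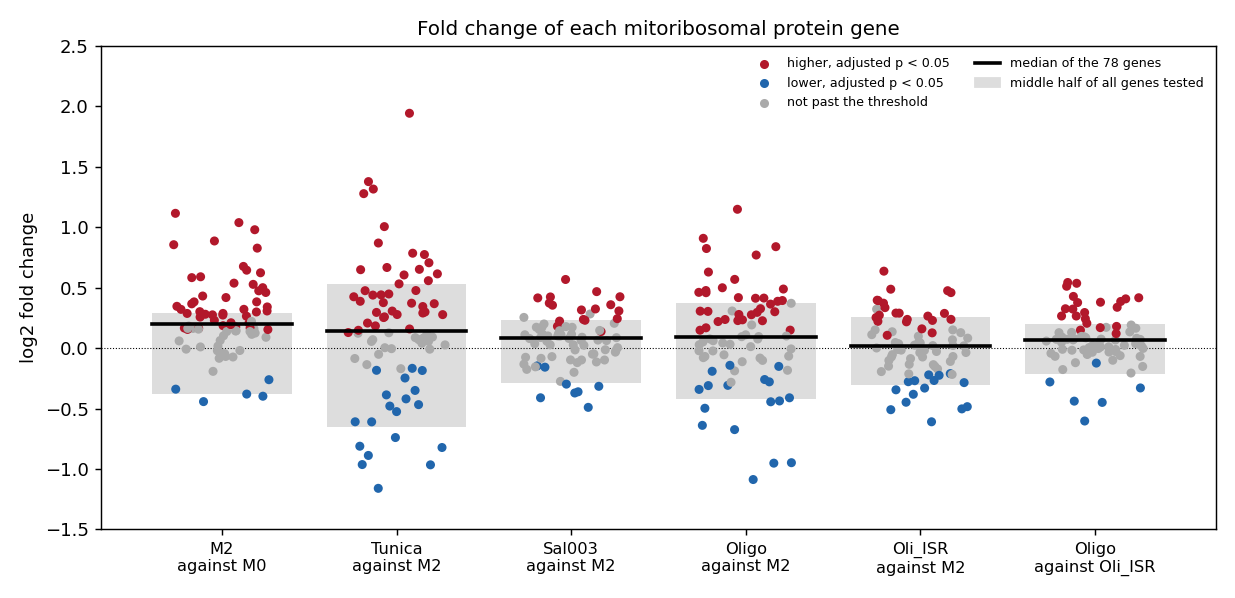
Log2 fold change of each of the 78 members in each comparison, with red and blue points for genes higher and lower at an edgeR adjusted *P* under 0.05, black lines for the median of the members and grey boxes for the interquartile range of all 13679 genes tested. Horizontal position within a column is random. The members reach from −1.16 to 1.94 in Tunica and from −0.49 to 0.57 in Sal003, and the comparisons with M2 share its libraries.

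The 3 S18 genes were read side by side. In M2 against M0, *Mrps18b* rose by 0.32 ± 0.08 on the log2 scale (edgeR adjusted *P* = 0.00109), or by 0.39 without the naive library of mouse 2 (edgeR adjusted *P* = 0.00016), and *Mrps18a* and *Mrps18c* did not pass the test, with values of −0.04 and −0.19 that were 0.10 and 0.05 without that library. *Mrps18b* had mean log2 fold changes against M2 of 1.94, 0.57, 1.15 and 0.64 in Tunica, Sal003, Oligo and Oli_ISR, comparisons that share the M2 libraries. The corresponding values of *Mrps18a*, whose product sits in the large subunit, were 0.37, 0.24, 0.46 and 0.29, all past the test. The call in Sal003 was lost without mouse 1, 4 or 5 (edgeR adjusted *P* of 0.0771, 0.0838 and 0.0794) and with upper-quartile scaling (0.0723), and that in Oli_ISR without mouse 5 (0.0549). Those of *Mrps18c*, whose product sits in the small subunit where bacterial S18 does, were 0.42, 0.28, 0.31 and 0.32, of which that in Tunica passed (edgeR adjusted *P* = 0.00886). With the mouse as a block, *Mrps18c* passed in Oligo (edgeR adjusted *P* = 0.0427) and Oli_ISR (edgeR adjusted *P* = 0.0381) too. Between genes of this trio the difference itself was not tested. *Mrps18a* is overlapped over 71.9% of its transcript by *Rsph9*, which was higher than M2 in every inhibitor group, and *Mrps18c* over 77.7% by *Abraxas1* and *Helq*. Against M2, *Abraxas1* had log2 fold changes of 1.01 in Tunica, 1.06 in Oligo and 0.44 in Oli_ISR, all past the test. In Sal003 it had −0.07 and did not pass. *Helq* passed in Oligo alone, at 0.36. With the strand setting not stated, reads of *Mrps18c* may not be separable from those of its neighbours.

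The stalk genes were read in the same way. *Mrpl12* had log2 fold changes against M2 of −0.53, −0.41, −0.41 and −0.45 in Tunica, Sal003, Oligo and Oli_ISR, all past the test. Its level in these groups averaged between 38.5 and 41.7 CPM, where the naive cells had 26.3 to 27.4 CPM in mice 1, 4 and 5 and 42.2 CPM in mouse 2. *Mrpl10* had values of 0.06, 0.09, 0.15 and 0.13, of which those in Oligo and Oli_ISR passed, the latter with an edgeR adjusted *P* of 0.0368. These calls of *Mrpl10* depended on single mice and, in Oli_ISR, on the scaling and the filter: that in Oligo was lost without mouse 1 (edgeR adjusted *P* = 0.0651) or mouse 4 (0.0867), that in Oli_ISR without mouse 1 (0.225), mouse 4 (0.1) or mouse 5 (0.125) and with DESeq2 (0.0763), upper-quartile scaling (0.249), library size alone (0.387), no filter on low counts (0.157) and at least 10 counts in every library (0.0798), and the rise in M2 against M0 without mouse 5 (0.062). *Mrpl11* had −0.17, 0.25, −0.31 and −0.10, of which that in Oligo passed (edgeR adjusted *P* = 0.0174), but not without mouse 1 (0.0635) or mouse 5 (0.0574). With the mouse as a block *Mrpl11* was also higher in Sal003 (edgeR adjusted *P* = 0.0397).

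**Figure D5:**
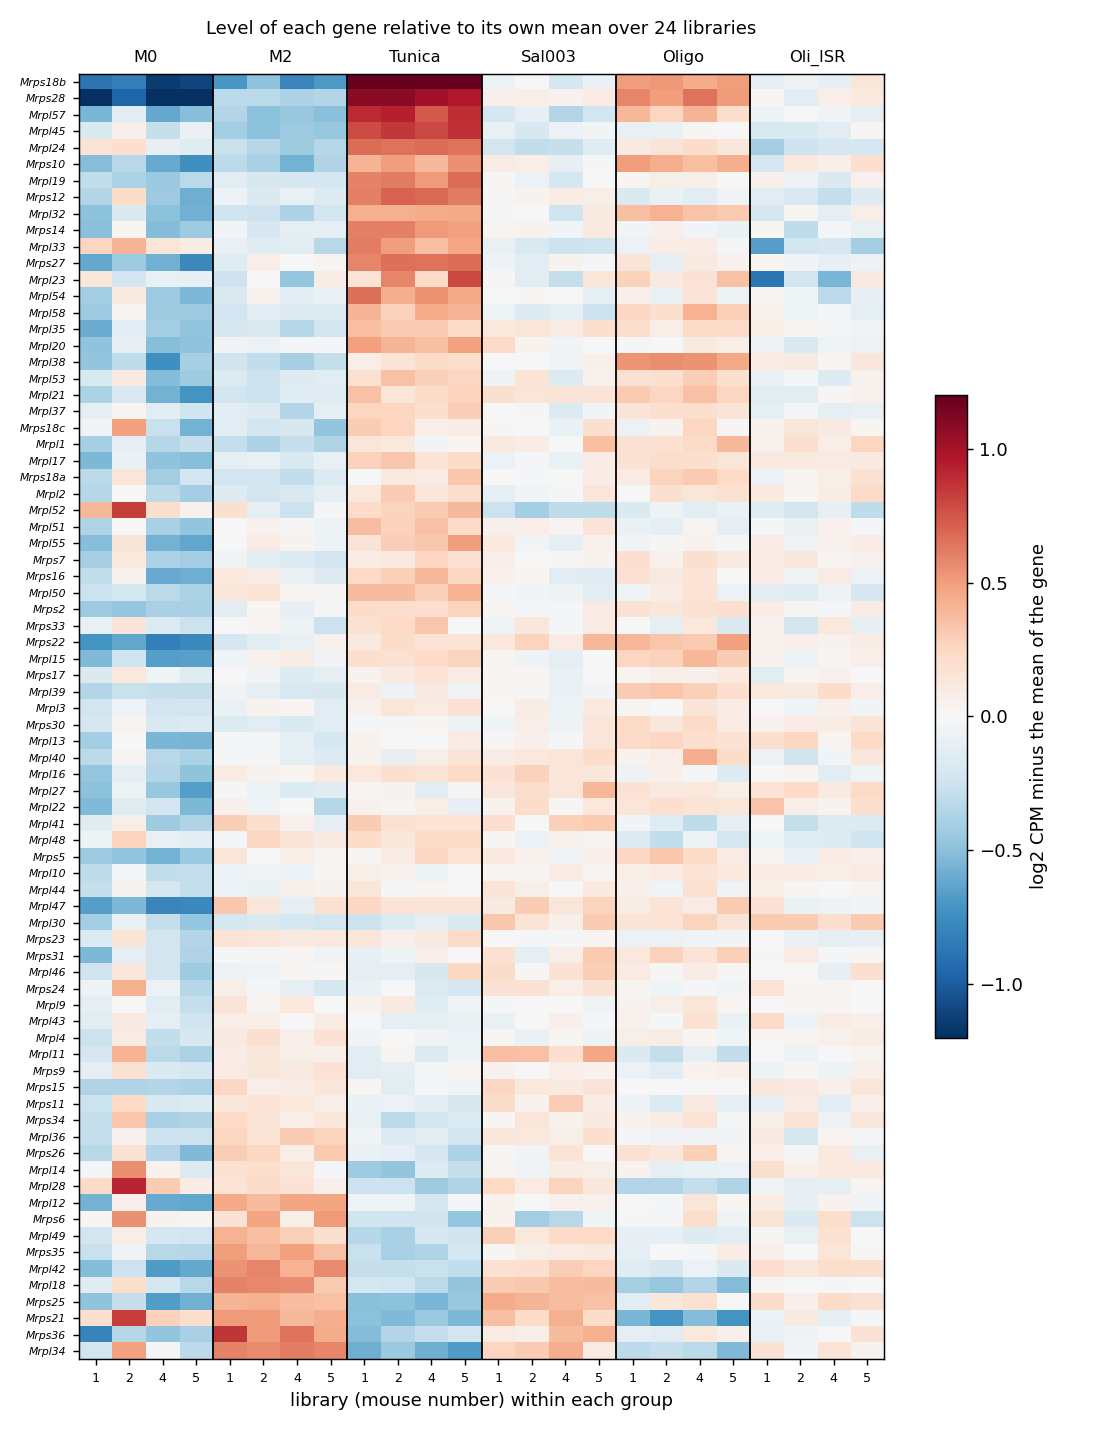
Level of all 78 members in 24 libraries, as log2 CPM minus the mean of the gene over all libraries, with genes ordered by their fold change in Tunica against M2. Columns are libraries, grouped by treatment and numbered by mouse, and colours are capped at 1.2. *Mrps18b* and *Mrps28* at the top are highest in Tunica, *Mrpl34* and *Mrps36* at the bottom are highest in M2, and the naive library of mouse 2 is the highest naive library for 73 members.

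The 5 mitoribosomal proteins that are named otherwise were followed beside the members. Of *Dap3*, *Ptcd3*, *Chchd1*, *Aurkaip1* and *Gadd45gip1*, 1 was higher and 0 lower in M2 against M0, namely *Ptcd3* (log2 fold change 0.45 ± 0.06, edgeR adjusted *P* = 4.46e-07), and all 5 were higher without the naive library of mouse 2. In Tunica 3 were higher and 1 lower than M2, in Sal003 2 higher and 0 lower, in Oligo 4 higher and 0 lower, and in Oli_ISR 3 higher and 1 lower. *Dap3*, a small-subunit protein that binds GTP, was higher than M2 in Oligo, at 46.9 ± 0.92 against 37.3 ± 0.81 CPM (edgeR adjusted *P* = 4.71e-05). The largest were *Chchd1* in Tunica, at 0.48 ± 0.11 (edgeR adjusted *P* = 0.000502), and *Gadd45gip1* in Tunica, at 0.45 ± 0.09 (edgeR adjusted *P* = 0.000152).

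Regulators of mitochondrial biogenesis and of the stress response were read beside the members. *Ppargc1b*, a coactivator of nuclear genes for mitochondria, averaged 3.13 CPM in M0, 36.5 CPM in M2, 1.46 CPM in Tunica, 14.1 CPM in Sal003, 5.13 CPM in Oligo and 11.4 CPM in Oli_ISR. *Myc*, a transcription factor of growth genes, averaged 8.28 CPM in M0, 63.2 CPM in M2, 49.0 CPM in Tunica, 22.9 CPM in Sal003, 33.2 CPM in Oligo and 23.4 CPM in Oli_ISR. *Atf4*, the main transcription factor of the integrated stress response, averaged 116 CPM in M0, 136 CPM in M2, 1094 CPM in Tunica, 206 CPM in Sal003, 704 CPM in Oligo and 478 CPM in Oli_ISR. Of the 12 regulators tested, 7 were higher and 2 lower in M2 against M0, and 7 higher and 3 lower in Tunica, 4 and 4 in Sal003, 5 and 5 in Oligo and 5 and 4 in Oli_ISR against M2. Their part in the members' levels was not tested.

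The promoters were read to see what the members share in sequence. The 250 bases before the start of the main transcript were taken from GRCm39 for all 78 members and for 21757 protein-coding genes, and were searched on both strands. The site of nuclear respiratory factor NRF1, searched as GCGCA and GCGC with any base between them, occurred in 7 members (9.0%) and in 3.7% of all genes. The letters CCGGAAG, the core bound by ETS factors such as GABPA, occurred in 14 members (17.9%) and in 6.9% of all genes. The E-box CACGTG occurred in 4 members (5.1%) and in 6.3% of all genes, and the C/EBP-ATF composite TGATGNAA, the element bound by ATF4, occurred in 1 member, *Mrpl13* (1.3%), and in 3.4% of all genes. A start within 1 kilobase on the opposite strand, facing away, was found for 20 members (25.6%) and for 6.2% of all protein-coding genes. No test was made of these shares. The promoters below were chosen because their windows hold no annotated exon and their genes moved in opposite directions in Tunica: *Mrpl45* and *Mrps28* rose in it, *Mrpl38* rose in Oligo, and *Mrpl18* fell in both. Capitals mark matches to the NRF1 site in *Mrpl45* and to the ETS letters on the opposite strand in *Mrpl38*, and the others hold no match to any of the 4 motifs. Of the most strongly moved members, *Mrps18b*, *Mrps28*, *Mrps10*, *Mrpl18* and *Mrps36* hold none of them in this window, while *Mrpl57* and *Mrps21*, which moved in opposite directions, both hold the NRF1 site. A start in a second annotation, RefSeq, was at hand for 69 members and lay within 50 bases of the one used for 45. The windows of *Mrps18b*, *Mrps10*, *Mrpl18* and *Mrps36* could not be matched to RefSeq, and *Mrps28* and *Mrpl38* had no RefSeq start. For these genes the start is uncertain, so a missing motif may reflect the start chosen.
*Mrpl45* promoter, chr11:97206292-97206541, plus strand: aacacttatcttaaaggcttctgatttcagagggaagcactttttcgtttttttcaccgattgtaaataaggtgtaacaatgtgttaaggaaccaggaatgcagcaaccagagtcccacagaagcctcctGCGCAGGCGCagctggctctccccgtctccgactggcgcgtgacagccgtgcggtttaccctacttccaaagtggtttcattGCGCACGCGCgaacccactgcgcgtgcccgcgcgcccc
*Mrps28* promoter, chr3:8988979-8989228, minus strand: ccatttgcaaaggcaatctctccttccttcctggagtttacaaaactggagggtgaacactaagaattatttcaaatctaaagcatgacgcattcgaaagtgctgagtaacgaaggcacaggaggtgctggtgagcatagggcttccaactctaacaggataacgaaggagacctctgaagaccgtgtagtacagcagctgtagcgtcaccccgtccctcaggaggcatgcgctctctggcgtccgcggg
*Mrpl38* promoter, chr11:116029701-116029950, minus strand: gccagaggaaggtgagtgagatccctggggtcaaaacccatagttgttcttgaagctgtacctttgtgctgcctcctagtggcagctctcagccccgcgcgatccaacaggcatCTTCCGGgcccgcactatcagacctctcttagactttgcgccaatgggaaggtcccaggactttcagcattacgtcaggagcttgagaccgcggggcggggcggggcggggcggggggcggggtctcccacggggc
*Mrpl18* promoter, chr17:13135719-13135968, minus strand: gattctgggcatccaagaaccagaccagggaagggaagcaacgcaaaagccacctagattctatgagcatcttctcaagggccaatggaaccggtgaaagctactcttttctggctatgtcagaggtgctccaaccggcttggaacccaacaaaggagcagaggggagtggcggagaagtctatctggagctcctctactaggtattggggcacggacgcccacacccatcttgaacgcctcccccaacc

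Read sharing bears on many of these genes. Opposite-strand exons of other genes overlap 37 members, same-strand exons overlap 5, near-identical stretches of other genes are found in 31, and 19 members are free of all of these. Of the 19, 11 (57.9%) were higher and 2 lower in M2 against M0, where 30.1% and 30.4% of all genes were, and 11 (57.9%) were higher and 3 lower in Tunica against M2, where 38.7% and 37.6% were. In Oligo against M2, 6 (31.6%) were higher and 5 (26.3%) lower, close to the 34% and 32.2% of all genes. In Sal003 against M2, 2 (10.5%) were higher and 2 (10.5%) lower, below the 25.9% and 24.6% of all genes. In Oli_ISR against M2, 4 (21.1%) were higher and 3 (15.8%) lower, below the 27.9% and 26.4% of all genes. In Oligo against Oli_ISR, 4 (21.1%) were higher and 2 (10.5%) lower, where 19.9% and 21.3% of all genes were. In M2 against M0 without the naive library of mouse 2, 14 were higher and 1 lower, where 33% and 30.6% of all genes were. *Mrpl34*, *Mrpl1*, *Mrpl11*, *Mrpl38* and *Mrpl52* are among the 19. At the other end, *Mrpl46* and *Mrps24* passed the test in none of the 6 comparisons, with group means between 13.2 and 16.9 CPM and between 23.0 and 27.5 CPM.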

How the data were processed

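RNA-seq counts per gene were deposited for 24 libraries. Per the paper's methods and the labels, the authors trimmed reads with Cutadapt 1.8, aligned them to GRCm39 with STAR 2.7 and summarised raw counts with HTSeq 0.9.1; the strand setting was not stated. The deposited TPM values (RSEM 1.2.31) were not used, since their header did not match their columns. The 5 rows naming no gene held 12.74% to 15.23% of reads and were left out.

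Counts were filtered with filterByExpr, scaled by TMM and fitted with edgeR 4.0.16 (R 4.3.3) in 1 quasi-likelihood model of 6 groups without a mouse term, and *P* values were Benjamini-Hochberg adjusted over 13679 genes. CPM use TMM library sizes, and log2 CPM a prior count of 2. Overlaps, promoters and transcript lengths came from GENCODE vM39 on GRCm39, the build of the files. Replicates of a group come from different mice. Same-numbered libraries come from 1 mouse, and their deviations from the group means correlated at a median r of 0.24 over 60 pairs (−0.05 for 180 pairs of different mice). In each comparison the 3 largest rises and falls past the threshold were named, with the S18 and stalk genes and the highest and lowest level per kilobase, and at most 2 genes of each other list. Members and lists were chosen with earlier results of these data known. DESeq2 1.42.0, other scalings, filters, fits of 2 groups, a mouse block and leaving out mice were alternatives.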

Additional observations from a re-analysis of the deposited data

Results flagged for a closer look

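In groups of 4 libraries, 1 library stood apart from the others in 12 of 132 groups checked. Chance alone flags about 1 in 20 independent groups. The groups here are genes read in the same 24 libraries, so they are not independent and the rates cannot be compared directly. The value given is the gap to the nearest library as a share of the range of the group. In M0 the naive library of mouse 2 was high for *Mrpl10* (0.957), *Mrpl12* (0.932), *Mrps21* (0.903) and *Mrps6* (0.972). *Mrps21* had 32.5 CPM there and 21.0 to 22.1 CPM in the other naive libraries, and its log2 fold change in M2 against M0 was 0.25 without that library. That of *Mrps6* was 0.30 without it. In M2 *Mrpl18* was low in mouse 5, at 40.1 CPM (0.864). In Tunica *Mrps6* was low in mouse 5, at 5.30 CPM (0.970). In Sal003 *Mrpl10* was high in mouse 4 (0.945) and *Mrpl12* was low in mouse 2 (0.903). In Oligo the library of mouse 4 was high for the mean of the 78 members (0.849), for *Mrpl30* (0.870) and for *Mrps6* (0.858). In Oli_ISR *Mrpl30* was low in mouse 4, at 38.5 CPM (0.947).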

How the results depend on the processing

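The counts of members called in M2 against M0, Tunica against M2 and Oligo against M2 stayed within 1.5 times under each alternative, and their medians kept their sign. The Tunica median moved furthest with upper-quartile scaling, to 0.0859, and with at least 10 counts in every library, to 0.0915, both within the SD over mice of 0.0656. For Sal003 against M2 the median log2 fold change was 0.0495 with upper-quartile scaling, −0.00923 with library size alone, 0.0652 with at least 10 counts in every library and 0.067 with only these groups fitted. Sal003 had 11 members higher and 19 lower with library size alone, and 16 lower with only these groups fitted. Leaving out 1 mouse at a time gave 11 to 21 higher, 4 to 10 lower and medians of 0.0622 to 0.0935. For Oli_ISR against M2 the median was −0.0272 with upper-quartile scaling and −0.0525 with library size alone, which left 24 lower; leaving out 1 mouse gave 14 to 21 higher and medians of −0.0190 to 0.0496. For Oligo against Oli_ISR, library size alone gave 37 higher and a median of 0.185, and it moved the median of all genes by 0.117. The same scaling moved all genes by a median of −0.0957 in Sal003 against M2 and −0.0735 in Oli_ISR against M2. Upper-quartile scaling moved all genes by −0.0373 and −0.0483 in these comparisons. Under both scalings the members thus moved together with all genes. The cause of the shifts with other filters, fits or mice was not tested.

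Values that changed sign had not passed the test. *Mrps18a* and *Mrps18c* in M2 against M0 were 0.101 and 0.0471 without the naive library of mouse 2, an alternative added after seeing the data, and leaving out 1 mouse at a time gave −0.0824 to 0.0901 and −0.275 to 0.0268. *Mrpl10* in Sal003 was −0.00839 with library size alone. *Mrps18c* in Oligo against Oli_ISR was 0.0227 with upper-quartile scaling, 0.101 with library size alone and −0.0749 to 0.0253 without 1 mouse, where *Mrpl10* was −0.00089 to 0.0430.

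With the mouse as a block, 47 members were higher and 5 lower in M2 against M0, and 36 higher and 17 lower in Oligo against M2; every call made without the block was kept in all 6 comparisons, and 0 to 3 were gained. The smallest member count, 30 reads in a library, limits the least abundant genes.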
